A study of Mus musculus with 12 samples.

Results

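N2a cells given vehicle alone were profiled by messenger RNA sequencing, and the levels of their genes are described here without comparison to any treated group. N2a (Neuro-2a) is an established cell line from a mouse neuroblastoma, widely used as a neuron-like host for transfection and uptake experiments. The 4 libraries of the Vehicle group were chosen by their labels, out of 12 libraries in a series that exposed this line to brain-derived extracellular vesicles (BDEVs). The other 8 libraries, 4 of the SE-BDEV group and 4 of the CON-BDEV group, were not used here. All 12 libraries share the cell line, the column-based RNA isolation and a strand-keeping library kit with polyA selection. No genotype beyond the line, no vehicle composition and no time of treatment is given in the sources used here. Whether the 4 libraries came from separate cultures is not given either, so the spread between them may be technical.

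Neuroblastoma is a tumour of the sympathoadrenal lineage, the branch of the neural crest that forms sympathetic neurons and adrenal chromaffin cells. In that lineage the transcription factors PHOX2A, HAND2 and GATA3 keep each other active and drive the genes of noradrenaline synthesis and of dense-core granules, in which amines are packed together with chromogranins. Human neuroblastoma cells are often sorted into an adrenergic state, which uses this circuit, and a mesenchymal state, which uses factors such as PRRX1 and YAP1.

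Levels are in FPKM, fragments per kilobase of transcript scaled by the depth of the library, so that genes of different length can be set side by side. A gene was counted as expressed when it had at least 1 FPKM in each of the 4 libraries, as absent when its mean was below 0.1 FPKM, and as low in between. Where 4 values are given they are Vehicle 1 to 4 in order, single values are means over the 4 libraries, and ± gives the SD (n = 4). The estimated depth was 15400000 to 16800000 fragments per library. At that depth 3 fragments on a transcript of 2000 bases correspond to 0.0893 to 0.0974 FPKM, so absent means not detectable above about this limit, which covers counting error only and is higher for shorter transcripts. In bulk RNA a low level in all cells cannot be told apart from a high level in a few.

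Of 24318 gene rows, 11073 (45.5%) were expressed, 2488 were low and 10757 (44.2%) were absent, of which 7571 were listed at 0 in every library. The median level of the expressed genes was 15.9 FPKM. A mean of at least 100 FPKM was reached by 868 genes, and 76 reached 1000 FPKM. The authors' deposited table of the CON-BDEV and Vehicle comparison marked each of the 10757 absent genes as NOTEST and each of the 11073 expressed genes as OK, and held no other mark. The gene lists below held 1392 measured genes, of which 704 (50.6%) were expressed, 152 low and 536 absent. Each list count below is to be set beside the 45.5% expressed and 44.2% absent over all gene rows.

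**Figure D1:**
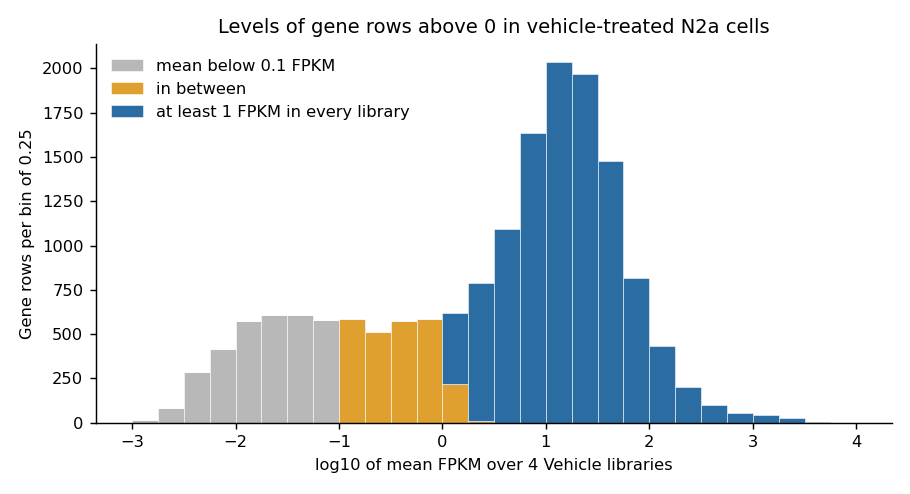
Histogram of the mean FPKM over 4 Vehicle libraries on a log10 axis, in bins of 0.25, for all gene rows above 0, coloured by class (7571 rows listed at 0 in every library are not drawn). The levels form a main peak above 10 FPKM and a broad shoulder below 1 FPKM.

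All 6 genes taken as marks of a sympathoadrenal neuroblast were expressed. Hand2, a basic helix-loop-helix factor of sympathetic neurons on chromosome 8 (59799779 to 59803314 on mm9), was at 145, 163, 161 and 164 FPKM in Vehicle 1 to 4 (158 ± 9.07, SD, n = 4). Its Vehicle 1 value was the lowest, and the other libraries lay together. Phox2a, the homeobox gene that switches on noradrenergic genes, on chromosome 7 (108966826 to 108986740), was at 83.6, 80.4, 78.0 and 76.7 FPKM (79.7 ± 3.01). Gata3, a zinc-finger factor needed for noradrenergic maturation, on chromosome 2 (9778704 to 9800227), was at 7.24, 7.15, 8.10 and 7.38 FPKM (7.47 ± 0.431), the lowest level of the 3 transcription factors. Chga, the granule protein chromogranin A, on chromosome 12 (103793178 to 103803237), was at 151, 159, 157 and 162 FPKM (157 ± 4.65). The growth-associated gene Stmn2, which binds tubulin in extending neurites, on chromosome 3 (8509526 to 8561604), was at 152, 159, 159 and 163 FPKM (158 ± 4.69). Dbh, which turns dopamine into noradrenaline, on chromosome 2 (27021026 to 27038724), was at 3.87, 4.70, 4.67 and 4.77 FPKM (4.50 ± 0.424) and was the least abundant of the 6, below the alternative threshold of 5 FPKM.

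Of 26 sympathoadrenal transcription factors, 16 (61.5%) were expressed, against 45.5% of all gene rows, 3 were low and 7 were absent. Gata2, a relative of Gata3, was at 73.0, 79.9, 76.1 and 78.4 FPKM (76.8 ± 3.02), so the FPKM of Gata2 was above that of Gata3 in every library. The LIM-domain cofactor Lmo1 stood at 69.6 ± 1.70 FPKM, the neuroblast factor Sox4 at 83.9 ± 3.88, the LIM-homeobox gene Isl1 at 24.7 ± 1.16 and the neuroendocrine repressor Insm1 at 17.7 ± 0.798. Tbx2, a T-box member of the adrenergic circuit, was at 20.02 ± 0.914 FPKM. Hand1, the close relative of Hand2, was low, at 0.364, 0.510, 0.519 and 0.692 FPKM. Tfap2b lay on both sides of the threshold, at 1.21, 0.986, 0.940 and 1.31 FPKM. The absent genes included Nhlh1, Rarb, Eya1, Insm2, Nhlh2 and Klf13.

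**Figure D2:**
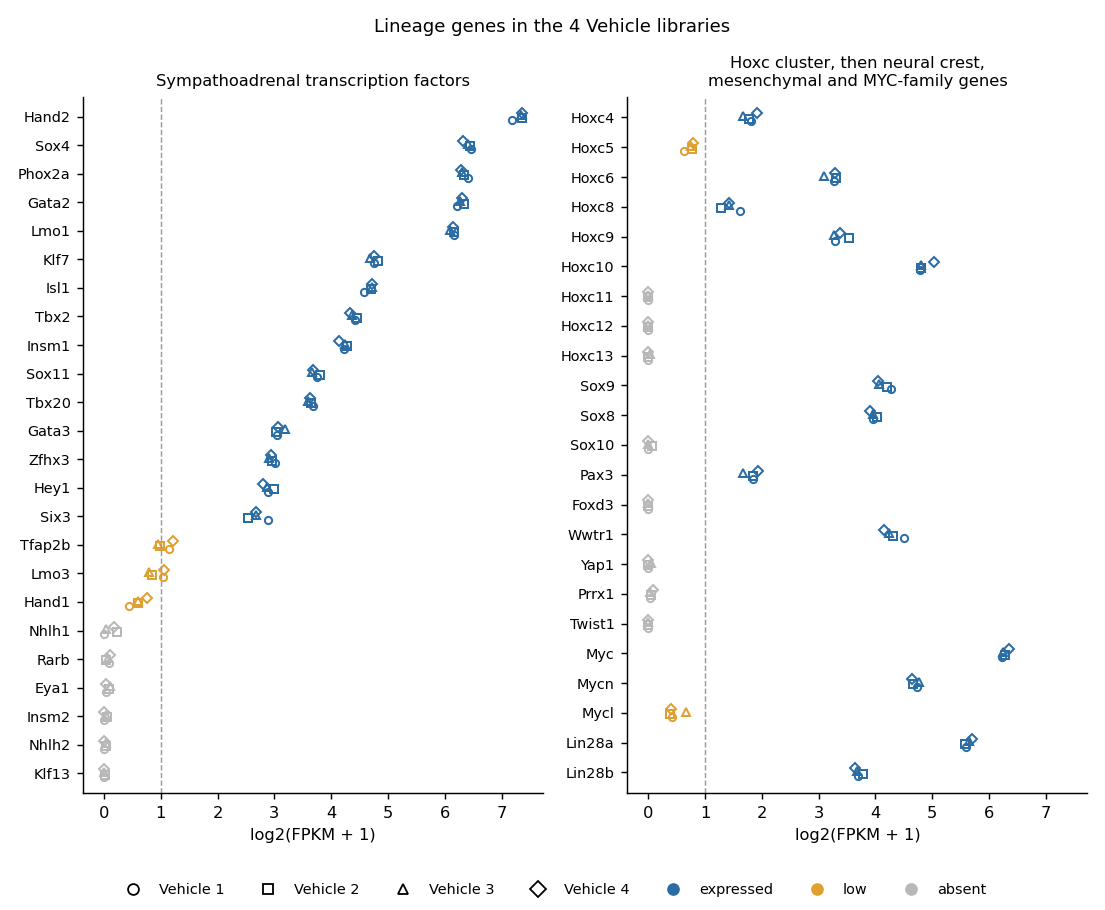
Each symbol is 1 Vehicle library, on a log2(FPKM + 1) axis, for sympathoadrenal transcription factors ordered by mean level (left) and for the Hoxc cluster and selected neural crest, mesenchymal, MYC-family and LIN28 genes (right). The dashed line is at 1 FPKM, and colour gives the class. Hand2 is highest on the left, and on the right Hoxc4 to Hoxc10 are above 0 while Hoxc11 and Hoxc12 are at 0.

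Of 29 genes of the mesenchymal tumour state 9 (31.0%) were expressed, against 45.5% of all gene rows, 10 were low and 10 absent. Vim, the intermediate filament vimentin, was at 1022 ± 8.07 FPKM and Fn1, the matrix protein fibronectin, at 164 ± 5.05 FPKM. Other expressed members were Irf1 at 11.8 FPKM, Mafk at 10.8, Fosl2 at 9.39, Six4 at 6.60, Notch2 at 6.26 and Egr3 at 1.43 FPKM. Prrx1, the homeobox factor that defines the state, and the epithelial-mesenchymal factors Twist1 and Twist2 were absent, the latter pair listed at 0. Among the 2 Hippo pathway coactivators, Wwtr1 (TAZ) was at 21.7, 18.9, 17.9 and 16.8 FPKM and Yap1 was at 0, 0, 0.0292 and 0 FPKM. The FPKM of Wwtr1 alone thus made up 99.8% to 100% of the pair's sum in each library. Of the 3 collagen genes in the list, Col1a1 was low at 0.552 FPKM, Col1a2 was below 0.1 FPKM and Col3a1 was listed at 0.

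Of 19 neural crest and Schwann cell precursor genes 7 (36.8%) were expressed, against 45.5% of all gene rows, 3 were low and 9 absent. Sox9, an early crest factor, was at 18.3, 17.3, 15.8 and 15.5 FPKM and its group E relative Sox8 at 14.5, 15.3, 14.5 and 14 FPKM. Sox10, the third gene of that group and the defining gene of Schwann cell precursors, was at 0, 0.0452, 0 and 0 FPKM. Group E was thus present as Sox8 and Sox9 only. Foxd3 and Tfap2a were listed at 0. Nes, the progenitor filament nestin, was at 19.1 FPKM and Pax3 at 2.55 FPKM. The remaining expressed members were Ets1 at 3.45 FPKM, Erbb3 at 2.20, 2.09, 1.68 and 1.45 FPKM, and Mitf at 1.38 FPKM.

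Hox expression came from 1 cluster. Hox genes are laid out in 4 clusters and are read out along the body axis, low numbers in front and high numbers towards the tail. Of 39 Hox genes, 5 were expressed, 1 was low and 33 were absent, and all 6 detected genes belonged to Hoxc on chromosome 15. Hoxc10 was highest, at 26.7, 26.9, 27.0 and 31.6 FPKM (28 ± 2.35), with Vehicle 4 above the rest. Hoxc9 was at 8.81, 10.6, 8.68 and 9.41 FPKM, and Hoxc6 at 8.65, 8.90, 7.59 and 8.79 FPKM, so Hoxc9 was the higher of the pair in every library although their ranges overlapped. Hoxc4 at 2.47 ± 0.246 FPKM and Hoxc8 at 1.71 ± 0.257 FPKM followed, and Hoxc5 was low at 0.662 FPKM. The next gene of the cluster on the tail side, Hoxc11, was listed at 0 in all 4 libraries, as was Hoxc12. Transcripts of neighbouring Hoxc genes overlap, so the split among them is uncertain. The 11 Hoxa genes summed to at most 0.0689 FPKM in a library, the 10 Hoxb genes to at most 0.131 FPKM, and the 9 Hoxd genes were listed at 0 throughout.

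MYC-family and oncofetal genes were largely on, with 18 of 22 expressed (81.8%, against 45.5% of all gene rows). Myc was at 73.9, 77.0, 74.5 and 80.9 FPKM (76.6 ± 3.17) and Mycn, the gene amplified in aggressive human neuroblastoma, at 25.5, 24.4, 26.3 and 24.1 FPKM (25.1 ± 1.03). Myc therefore made up 75.0% ± 1.53 and Mycn 24.6% ± 1.43 of the family's summed FPKM (SD, n = 4), with Mycl at 0.388 FPKM. The let-7 blocking RNA-binding proteins were both expressed, Lin28a at 48.5 ± 1.89 FPKM and Lin28b at 12 ± 0.527 FPKM. Alk, the receptor kinase mutated in human neuroblastoma, was at 5.93 ± 0.125 FPKM and Tert, the catalytic subunit of telomerase, at 3.51 ± 0.281 FPKM. Hmga1 was at 60.9 FPKM, while its relative Hmga2 and the oncofetal RNA-binding gene Igf2bp1 were absent.

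Most factors of brain neurons were absent. Of 28 transcription factors of central and forebrain neurons, 8 (28.6%) were expressed, against 45.5% of all gene rows. A further 0 were low and 20 were absent, 14 of them listed at 0. The latter group held the cortical genes Neurod2, Neurod6, Emx1, Emx2, Fezf2 and Bcl11b and the midbrain genes Lmx1a, Lmx1b and Pitx3. Cux1, a widely used factor, was at 22.5 FPKM. Others expressed were Pax6 at 4.56 ± 0.312 FPKM, Cux2 at 2.57, Nr4a2 at 2.57, Dlx2 at 2.34, Dlx1 at 2.31 and Lhx6 at 2.23 FPKM.

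The structural genes shared by neurons were the most complete lineage list, with 44 of 49 expressed and a median of 41.4 FPKM, against 45.5% of all gene rows expressed. The tubulin-binding gene Stmn1 was at 1054 FPKM. Prph, the intermediate filament of peripheral neurons, was at 859, 839, 828 and 831 FPKM (839 ± 14), and the neuronal tubulin Tubb3 at 398, 396, 404 and 410 FPKM (402 ± 6.03). Uchl1, a neuronal ubiquitin hydrolase, was at 608 FPKM and Map1b at 411 FPKM. The neurofilament subunits differed: Nefh was at 43.9 FPKM, Ina at 36.9 and Nefl at 2.54, and Nefm was low at 0.731 FPKM. Dcx, the microtubule protein of migrating young neurons, was the 1 absent member, at 0.0668, 0.0189, 0.0323 and 0.0136 FPKM. The nuclear antigen NeuN, encoded by Rbfox3, was low at 0.40 FPKM, whereas its relative Rbfox2 was at 42.1 FPKM. Rest, the repressor of neuronal genes outside the nervous system, was at 7.85 FPKM in the same libraries.

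Genes of noradrenaline synthesis and storage were expressed, and those of its reuptake and oxidation were absent. Of 18 genes of catecholamine synthesis, storage and breakdown, 11 were expressed, 1 was low and 6 were absent. Th, the rate-limiting tyrosine hydroxylase on chromosome 7 (150078680 to 150085871 on mm9), was at 5.18, 4.81, 4.66 and 4.42 FPKM (4.77 ± 0.316). The next enzyme, the decarboxylase Ddc, was at 1.37, 1.12, 1.27 and 1.37 FPKM (1.28 ± 0.121), close to the threshold. Together with Dbh these 3 enzymes were below the median expressed gene. Gch1, which makes the cofactor tetrahydrobiopterin, was at 37.6, 32.8, 36.8 and 35.5 FPKM, and the cofactor genes Spr, Pts and Qdpr were at 37.7, 10.1 and 50.5 FPKM. Slc18a2, the vesicular monoamine transporter VMAT2, was at 23.2, 24.5, 24.3 and 23.2 FPKM (23.8 ± 0.710). Its relative Slc18a1, VMAT1, was at 0.320, 0.291, 0.435 and 0.354 FPKM, which left 98.6% of the pair's summed FPKM to Slc18a2. Pnmt, which makes adrenaline, was listed at 0. The noradrenaline reuptake transporter Slc6a2 and the oxidases Maoa and Maob were absent, with Maoa at 0.0275, 0.113, 0.0578 and 0 FPKM.

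The defining genes of acetylcholine, GABA and vesicular glutamate transmission were absent or low, and those of serotonin synthesis were expressed. The acetylcholine-making gene Chat, the choline transporter Slc5a7 and the vesicle transporter Slc18a3 were absent, while acetylcholinesterase, Ache, was at 10.5 FPKM and its membrane anchor Prima1 at 9.09 FPKM. Of 11 GABA and glycine genes 3 were expressed, and the GABA-making genes Gad1 and Gad2 were not among them, nor was the vesicle transporter Slc32a1. Abat, which breaks GABA down, was at 22.9 FPKM. Among the vesicular glutamate transporters Slc17a7 was low at 0.341 FPKM and Slc17a6 and Slc17a8 were absent, while the general glutamate enzymes Glul and Glud1 were at 49.1 and 48.2 FPKM. Both tryptophan hydroxylases of serotonin synthesis were expressed. Tph2, the neuronal form, was at 5.94, 5.46, 5.14 and 4.93 FPKM and Tph1 at 3.25, 4.84, 3.56 and 2.86 FPKM, so the FPKM of Tph2 was above that of Tph1 in each library. The serotonin reuptake transporter Slc6a4 was absent, and the serotonergic factor Fev was low at 0.815 FPKM.

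Granule proteins were among the most abundant products of any transmitter list. Of 23 granin and peptide-processing genes, 15 were expressed, 3 low and 5 absent. Vgf, a secreted neuropeptide precursor, was at 250, 237, 232 and 237 FPKM, Chgb at 232, 233, 231 and 234 FPKM, and Scg3 at 189, 187, 188 and 193 FPKM. Scg2 followed at 162 ± 1.72 FPKM, with the range of all 4 libraries from 160 to 163 FPKM. Carboxypeptidase E, Cpe, which trims peptides in granules, was at 60.7 ± 1.99 FPKM. The prohormone convertases that cut before it were not at such levels. Pcsk1 was absent at 0.167, 0.0246, 0.0501 and 0.0264 FPKM and Pcsk2 low at 0.787 ± 0.0427 FPKM, while Furin, the convertase of the general secretory route, was at 40.4 FPKM. Cadps and Cadps2, which prime granules for release, were both absent. Of 36 neuropeptide precursors 4 were expressed: Npy, a cotransmitter of sympathetic neurons, at 19.1 ± 1.48 FPKM, Cartpt at 9.69 ± 0.688, Pomc at 3.37 and Nppb at 2.00 FPKM. Penk, Cck and Tac2 were listed at 0.

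Genes of vesicle release were mostly present, with 28 of 36 expressed (77.8%, against 45.5% of all gene rows) and 6 absent. Cplx1, a clamp of vesicle fusion, was at 87.7 FPKM, the membrane SNARE Snap25 at 74.7, the calcium sensor Syt1 at 50.6, the vesicle SNARE Vamp2 at 36.6 and the vesicle protein Syp at 31.9 FPKM. At the active zone 1 member of each pair was found: Rims2 at 19.8 FPKM with Rims1 absent, Unc13a at 38.4 FPKM with Unc13b absent, and Bsn at 3.32 FPKM with Pclo absent. The vesicle gene Sv2c was at 45.7 FPKM, Sv2a at 8.68 FPKM and Sv2b absent.

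**Figure D3:**
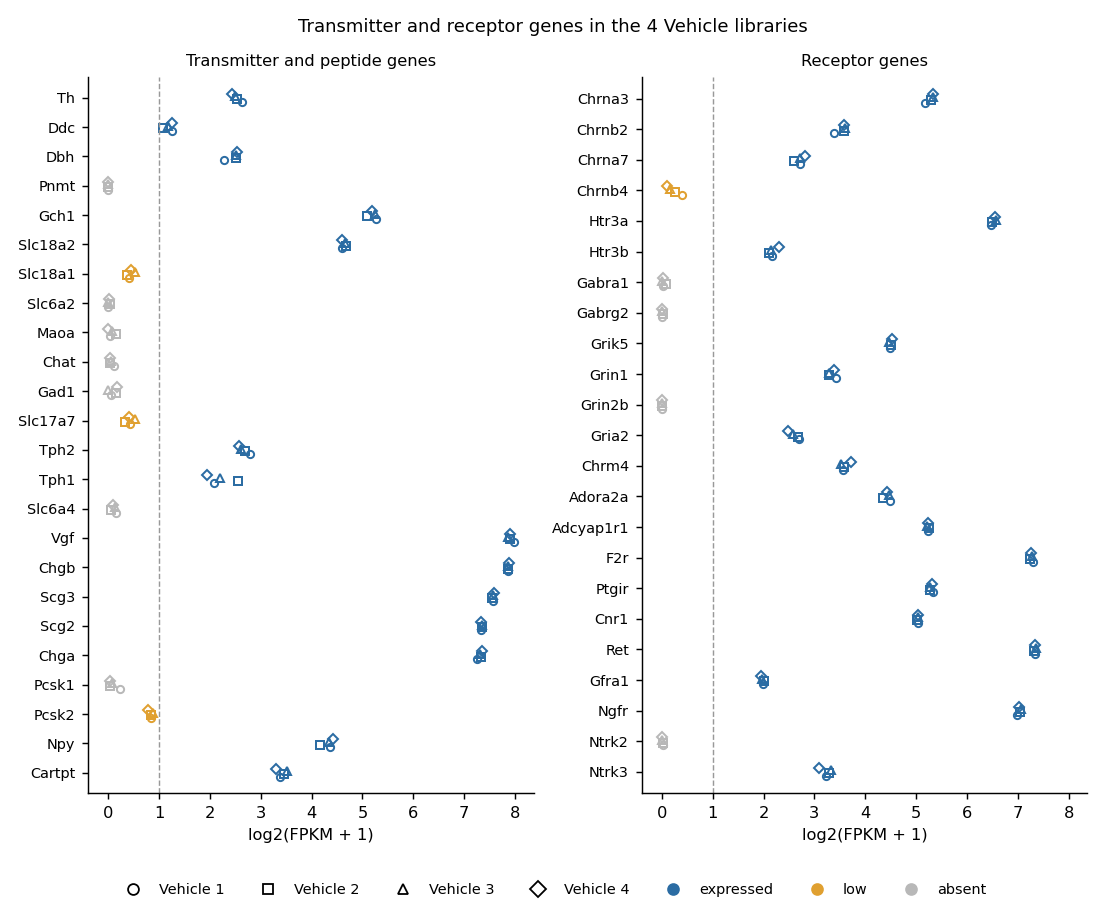
Each symbol is 1 Vehicle library, on a log2(FPKM + 1) axis, for selected transmitter and peptide genes (left) and receptor genes (right), and colour gives the class. The dashed line is at 1 FPKM. The granins Vgf to Chga stand furthest right among the transmitter genes, and Ret, F2r and Ngfr among the receptors.

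Receptor genes were the least expressed of the main areas, with 139 of 436 expressed (31.9%), 58 low and 239 absent. Over all gene rows 45.5% were expressed and 44.2% absent. Among 16 nicotinic acetylcholine subunits 3 were expressed. Chrna3, the alpha subunit of autonomic ganglia, was at 35.3, 38.0, 39.6 and 39.5 FPKM (38.1 ± 2.02) and Chrna7, which forms receptors by itself, at 5.57 ± 0.388 FPKM. Chrnb4, the beta subunit that usually joins Chrna3 in ganglia and lies next to it on chromosome 9, was low at 0.316, 0.189, 0.122 and 0.0737 FPKM. The other neuronal beta subunit, Chrnb2, was at 9.51, 10.9, 11.1 and 10.9 FPKM, above Chrnb4 in every library. Htr3a, the core subunit of the serotonin-gated channel, was at 87.5, 89.6, 93.5 and 93.0 FPKM (90.9 ± 2.86), the highest of the transmitter-gated channel genes, with its partner Htr3b at 3.53 ± 0.257 FPKM. The ATP-gated channel genes P2rx7, P2rx4 and P2rx3 were at 12.3, 8.16 and 4.59 FPKM.

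Subunit sets for GABA and glutamate were incomplete. Of 23 GABA-A and glycine receptor subunits 21 were absent, every GABA-A alpha and gamma subunit among them. Of 18 ionotropic glutamate subunits 3 were expressed, Grik5 at 21.6 ± 0.472 FPKM, Grin1 at 9.17 ± 0.505 and Gria2 at 5.08 ± 0.410 FPKM. The kainate subunits Grik1, Grik2 and Grik3, one of which Grik5 needs for a working channel, were absent. Of the NMDA partners of Grin1, Grin2d was at 0.984 FPKM, Grin2a and Grin2c were absent and Grin2b was listed at 0. For the metabotropic GABA receptor, Gabbr1 was at 11.9 FPKM and its obligate partner Gabbr2 was absent.

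G protein-coupled receptors were expressed in small numbers at clear levels. Of 36 amine and muscarinic receptors 3 were expressed: the muscarinic receptor Chrm4 at 11.1 ± 0.716 FPKM and the histamine receptors Hrh3 at 4.41 ± 0.245 and Hrh1 at 2.75 FPKM. No adrenergic or dopamine receptor reached the threshold, and the beta receptors Adrb1 and Adrb3 were listed at 0. Adora2a, the adenosine receptor, was at 20.6 ± 0.894 FPKM. Of 53 peptide receptors 6 were expressed, with Adcyap1r1, the PACAP receptor of sympathetic neurons, at 36.8, 37.0, 36.2 and 36.5 FPKM (36.6 ± 0.326). The next 2, Bdkrb2 and Crhr1, were at 7.75 and 7.18 FPKM. F2r, the thrombin receptor, was at 157, 149, 154 and 153 FPKM (153 ± 3.20), the highest of the G protein-coupled receptors listed. The prostacyclin receptor Ptgir was at 38.3 ± 0.591 FPKM and the cannabinoid receptor Cnr1 at 31.7, 31.6, 31.9 and 31.7 FPKM, while Cnr2 was absent.

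Of 53 receptor tyrosine kinases, 22 (41.5%) were expressed, near the 45.5% of all gene rows, and 27 were absent. Ret, the signalling receptor for GDNF-family ligands, on chromosome 6 (118101765 to 118147762 on mm9), was at 162, 160, 164 and 162 FPKM (162 ± 1.59). Its ligand-binding partners were far lower on the same scale, with Gfra1 at 2.94 ± 0.0716 FPKM, Gfra2 low at 0.784 FPKM, Gfra3 listed at 0 and Gfra4 absent. Ngfr, the low-affinity neurotrophin receptor, was at 126, 132, 133 and 128 FPKM (130 ± 3.03). The NT-3 receptor Ntrk3 was at 8.32, 8.75, 9.0 and 7.55 FPKM. Ntrk2, the BDNF receptor, was absent. The collagen receptors Ddr2 and Ddr1 were at 38.3 and 23.9 FPKM, Fgfr1 at 23.1, Igf1r at 15.6 and Insr at 12.9 FPKM, while Egfr was at 1.52 FPKM and Kit and Met were absent. The cytokine co-receptor Cntfr was at 45.3 FPKM and Il6st at 14.9 FPKM, but Lifr was absent.

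Voltage-gated channels were partly expressed, 12 of 31 sodium and calcium channel genes (38.7%) and 12 of 41 potassium and pacemaker genes (29.3%). The share over all gene rows was 45.5%. The main sodium channels were Scn8a at 6.50 ± 0.328 FPKM and Scn9a at 6.32 ± 0.233 FPKM, with ranges that overlap, and the auxiliary Scn3b was at 14.3 ± 0.174 FPKM. Cacna1b, the N-type calcium channel of sympathetic terminals, was at 10.3 ± 0.552 FPKM, and the L-type Cacna1c and T-type Cacna1g at 6.30 and 6.26 FPKM. All 3 alpha2-delta subunits listed, Cacna2d1, Cacna2d2 and Cacna2d3, were absent. Kcnh2, the ERG potassium channel, led the potassium genes at 30.4, 29.5, 30.5 and 31.4 FPKM. Hcn2 held 66.3% ± 1.07 of the summed FPKM of the pacemaker family and Hcn3 28.6% ± 1.02.

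For the surface molecules that take part in vesicle binding and uptake, 28 of 45 genes (62.2%) were expressed and 15 absent. The share expressed over all gene rows was 45.5%. The integrin Itgb1 was at 267 FPKM, the tetraspanins Cd63, Cd9 and Cd81 at 261, 156 and 76.1 FPKM, and the clathrin heavy chain Cltc at 121 FPKM. Scarb1, the HDL receptor, was at 60.5 FPKM. Both caveolin genes on the list were below 0.1 FPKM, with Cav1 listed at 0 in all 4 libraries, and the scavenger receptor Cd36 and the phosphatidylserine receptors Timd4 and Havcr1 were listed at 0 as well.

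In metabolism 234 of 312 genes were expressed (75.0%, against 45.5% of all gene rows), and families of isoforms were often taken up by 1 member. Glycolysis had 17 of 26 genes expressed, with Gapdh at 1299.9 FPKM, Aldoa at 672 and Pkm at 643 FPKM. Gapdh, Ldha and other glycolytic genes have processed pseudogenes, so their exact levels are uncertain. Ldha, the lactate dehydrogenase of muscle type, on chromosome 7 (54101173 to 54110997 on mm9), was at 765, 806, 816 and 800 FPKM (797 ± 21.9). Ldhb, the heart type, on chromosome 6 (142438768 to 142456477), was at 0.262, 0.215, 0.328 and 0 FPKM. Ldha held 99.9% of the summed FPKM of this family in the mean. Lactate export was led by Slc16a3 (MCT4) at 108 ± 3.29 FPKM, with Slc16a1 (MCT1) at 49.0 FPKM and Slc16a7 listed at 0. The neuronal glucose transporter Slc2a3 was at 58.2, 58.0, 59.2 and 60.0 FPKM and the general Slc2a1 at 14.3, 16.9, 17.4 and 15.4 FPKM, so Slc2a3 was higher per length in every library. Among hexokinases Hk1 held 73.7% ± 0.751 and Hk2 26.2% ± 0.718.

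The cell cycle gave a second such pair. Cdk4, the G1 kinase that pairs with D cyclins, on chromosome 10 (126500658 to 126504338 on mm9), was at 265, 270, 279 and 276 FPKM (273 ± 5.90). Cdk6, its close relative on chromosome 5 (3344311 to 3522225), was listed at 0 in all 4 libraries. The stretches upstream of these 2 pairs are shown because 1 gene of each pair was abundant and the other low or absent. Each is the 240 bases from 250 to 11 before the start RefSeq gives, 5′ to 3′ on the gene's strand in GRCm38.p6, with every CG dinucleotide in capitals. They lie at chr7:46845554-46845793 (Ldha, plus strand, the more upstream of 2 starts listed), chr6:142507968-142508207 (Ldhb, minus strand), chr10:127063285-127063524 (Cdk4, plus strand) and chr5:3343643-3343882 (Cdk6, plus strand).
Ldha: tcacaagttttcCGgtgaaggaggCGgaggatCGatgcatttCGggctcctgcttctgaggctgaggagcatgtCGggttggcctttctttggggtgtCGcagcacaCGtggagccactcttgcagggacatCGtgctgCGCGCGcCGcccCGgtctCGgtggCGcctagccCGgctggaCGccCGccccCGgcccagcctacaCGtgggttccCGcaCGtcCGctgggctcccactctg
Ldhb: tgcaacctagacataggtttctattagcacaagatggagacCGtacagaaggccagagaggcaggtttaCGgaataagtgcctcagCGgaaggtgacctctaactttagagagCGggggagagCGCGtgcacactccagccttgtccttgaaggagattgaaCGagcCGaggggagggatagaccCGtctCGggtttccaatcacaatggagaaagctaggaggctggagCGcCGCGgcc
Cdk4: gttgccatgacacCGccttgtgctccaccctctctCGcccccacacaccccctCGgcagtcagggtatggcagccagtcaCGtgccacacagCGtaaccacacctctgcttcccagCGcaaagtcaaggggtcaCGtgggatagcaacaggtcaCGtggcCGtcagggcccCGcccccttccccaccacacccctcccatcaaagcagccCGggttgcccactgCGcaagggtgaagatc
Cdk6: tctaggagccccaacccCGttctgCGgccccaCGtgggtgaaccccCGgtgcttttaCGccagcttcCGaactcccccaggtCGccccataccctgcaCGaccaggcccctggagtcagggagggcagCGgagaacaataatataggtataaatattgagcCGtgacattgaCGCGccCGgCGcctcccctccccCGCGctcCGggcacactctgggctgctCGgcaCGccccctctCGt
The letters CG occurred 23 times upstream of Ldha and 13 times upstream of Ldhb, 12 times upstream of Cdk4 and 20 times upstream of Cdk6. The median over 32851 RefSeq windows of this length was 5, and 11.8%, 29.8%, 32.0% and 16.4% of windows held at least as many as Ldha, Ldhb, Cdk4 and Cdk6 in that order. All 4 windows were thus above the median in CG. In the Ldh pair the more abundant gene had the higher CG count, and in the Cdk pair the gene listed at 0 had it. A link between CG count and expression was not tested. These counts describe the reference sequence, and methylation was not measured here.

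**Figure D4:**
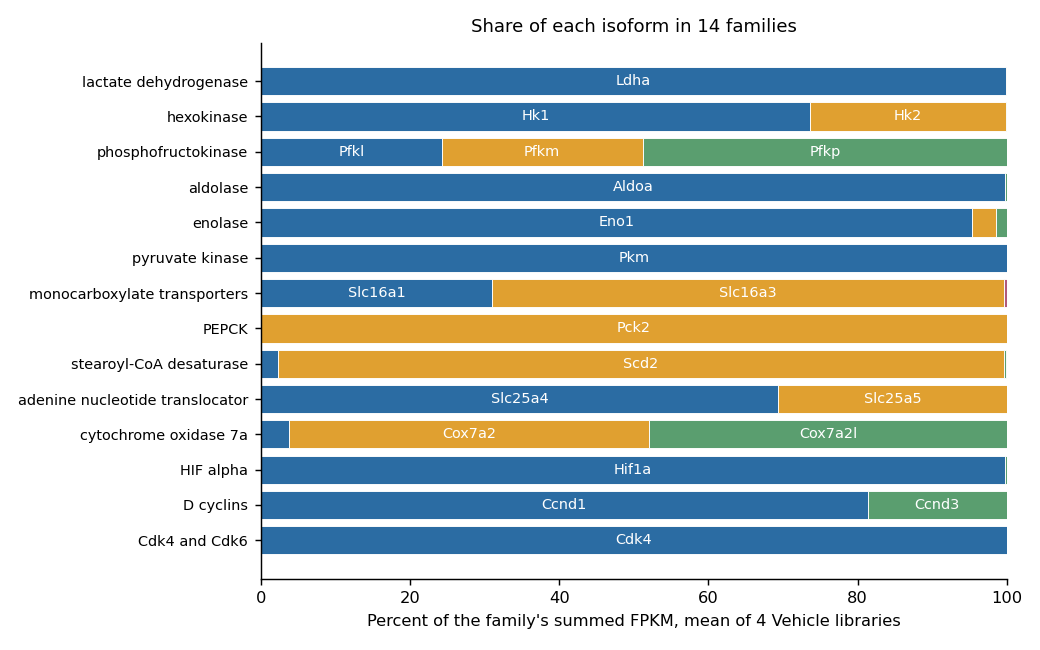
Stacked bars give the share of each isoform in the summed FPKM of 14 families, as the mean of 4 Vehicle libraries, with names printed on shares over 8%. Ldha, Aldoa, Pkm, Pck2, Scd2, Hif1a and Cdk4 each fill nearly the whole bar, and the phosphofructokinases share theirs.

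Of 20 genes of gluconeogenesis, glycogen and creatine 10 were expressed, a share near that of all gene rows (45.5%). Mitochondrial Pck2 was at 49.3 ± 2.14 FPKM while cytosolic Pck1 and the phosphatases G6pc and Fbp1 of liver glucose output were listed at 0. For creatine, Gamt was at 13.4 FPKM and the importer Slc6a8 at 8.53 FPKM, and Gatm, the first enzyme of the route, was absent at a mean of 0.0130 FPKM. Of 34 genes of pyruvate oxidation and the citric acid cycle, malic enzymes included, 29 were expressed. Acly, which turns exported citrate into acetyl-CoA, was at 355 FPKM. The 4 kinases that switch off pyruvate dehydrogenase were at most barely expressed: Pdk2 at 1.18 FPKM, Pdk1 at 0.143 FPKM, and Pdk3 and Pdk4 absent. Respiratory subunits followed the form of most tissues, with Cox4i1 at 888 FPKM against 5.0 FPKM for Cox4i2.

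Genes that make building blocks for growth were expressed at high levels. All but 1 of 29 pentose phosphate and nucleotide genes and all but 1 of 21 serine, glycine and folate genes were expressed, the exceptions being Tktl1 and the liver gene Mat1a. Phgdh, the first enzyme of serine synthesis, was at 323, 307, 313 and 314 FPKM (314 ± 6.77), and Asns, asparagine synthetase, at 498, 475, 486 and 498 FPKM (489 ± 11). The large amino acid transporter Slc7a5 was at 285 FPKM, and its heavy chain Slc3a2 at 240 FPKM. In the urea cycle Ass1 and Asl were at 46.0 and 27.6 FPKM, while Cps1, Arg1 and Arg2 were absent and Otc was listed at 0. Of 37 measured sterol and fatty acid synthesis genes 29 were expressed. Scd2, the brain form of stearoyl-CoA desaturase, was at 379, 377, 386 and 392 FPKM (383 ± 6.80) and held 97.4% of its family's summed FPKM, with Scd1 at 8.93 FPKM. Fdps, which makes farnesyl diphosphate, was at 237 ± 6.89 FPKM. Hmgcs1, a synthase earlier in the route, was not assessed, because its row lies on an unplaced contig.

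Fat and ketone use were also represented, with 23 of 31 genes expressed. Oxct1, which activates ketone bodies for burning, was at 177 FPKM. The carnitine transferase Cpt1a was at 16.3 FPKM and its brain relative Cpt1c at 13.3 FPKM. In the redox list 28 of 38 genes were expressed, led by Sod1 at 677 FPKM and Prdx2 at 435 FPKM. Metallothioneins, which bind zinc and copper, were scarce: Mt3, the nervous system form, was at 7.89 FPKM and Mt1 and Mt2 were low at 0.583 and 0.396 FPKM. Hif1a was at 55.9 ± 1.18 FPKM, while Epas1 (HIF2A), the form often linked to sympathoadrenal cells, was absent.

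Genes of dividing cells were expressed throughout. All 35 replication genes, all 37 mitosis genes and all 10 E2F-family genes listed were expressed, against 45.5% of gene rows. Pcna, the replication clamp, was at 207 FPKM, Top2a at 256, 251, 245 and 253 FPKM (251 ± 4.40), Mki67, the proliferation antigen, at 112, 110, 108 and 105 FPKM (109 ± 2.84) and the mitotic cyclin Ccnb1 at 192, 194, 195 and 199 FPKM (195 ± 3.17). The 4 libraries lay close together for each of these genes. Ccnd1, the G1 cyclin, was at 109, 111, 112 and 111 FPKM and Ccnd3 at 25.5 ± 1.64 FPKM, while Ccnd2 was absent at 0.0583, 0.0600, 0.0511 and 0.0431 FPKM. Ccnd1 thus held 81.3% ± 0.837 of the summed D cyclins.

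Brakes on the cycle were expressed beside it. Cdkn2a, which encodes the inhibitors p16Ink4a and p19Arf, on chromosome 4 (88920376 to 88940523 on mm9), was at 76.7, 78.5, 73.4 and 76.4 FPKM (76.3 ± 2.12), and the gene level does not say which product was made. Its neighbour Cdkn2b was absent at 0.0481, 0.0495, 0.101 and 0.158 FPKM. Cdkn1b (p27) was at 48.8 FPKM and Cdkn1a (p21), a target of p53, at 36.3, 30.7, 34.0 and 33.4 FPKM (33.6 ± 2.31). Trp53 itself was at 82.4, 88.8, 82.8 and 82.0 FPKM and Mdm2, which degrades it, at 49.5, 51.3, 52.0 and 50.7 FPKM. The retinoblastoma gene Rb1 was at 8.82 FPKM and its relatives Rbl1 and Rbl2 at 13.7 and 7.70 FPKM.

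**Figure D5:**
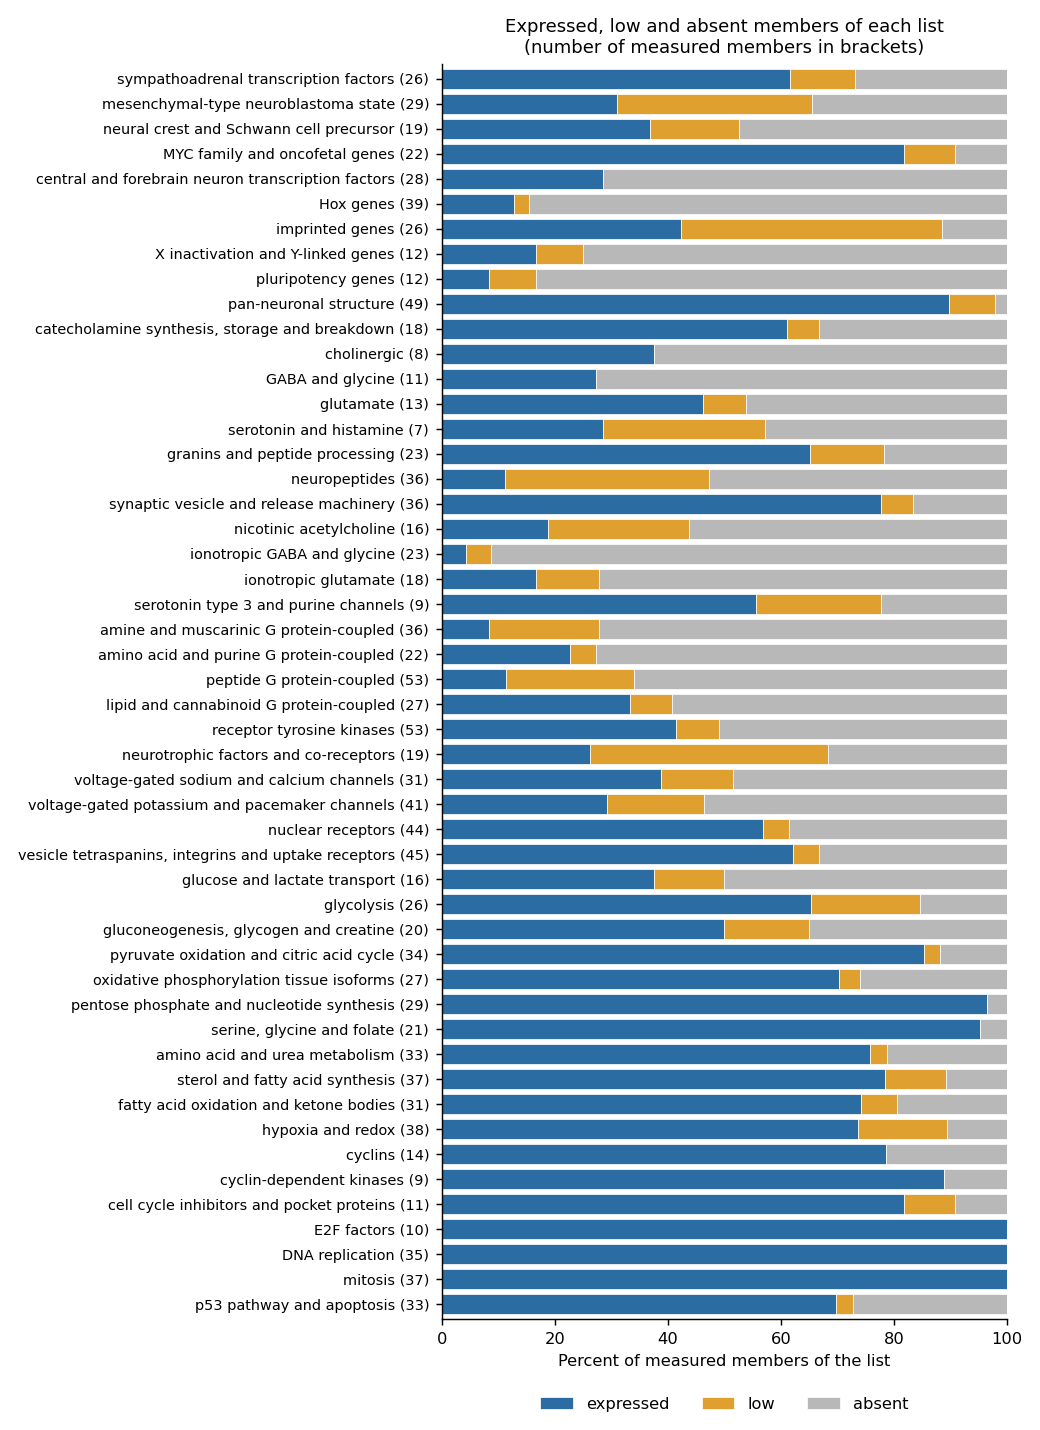
Horizontal bars give the percent of measured members that were expressed, low and absent in each of 50 lists of lineage, transmitter, receptor, metabolism and cell cycle genes, with the number of measured members in brackets. Replication, mitosis and E2F lists are fully expressed, and the ionotropic GABA and glycine receptor list has the smallest expressed share.

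Markers of other cell types were mostly absent, with 19 of 132 expressed (14.4%, against 45.5% of all gene rows), 19 low and 94 absent. Of 18 microglia and leukocyte markers 1 was expressed, Tmem119 at 1.78 FPKM, and the defining genes Ptprc, Aif1 and Itgam were listed at 0. The summed level of that list was 1.71 to 3.06 FPKM in the 4 libraries. No red blood cell, epithelial or liver marker was expressed. Of 12 astrocyte markers Sox9, Fgfr3 and Aldoc were expressed, and Gfap, Aqp4 and Gja1 were absent. Among 13 oligodendrocyte markers Cnp, Mbp and Pdgfra were expressed, at 11.9, 4.89 and 1.98 FPKM, and Olig1, Olig2, Mag and Mobp were listed at 0. Tnnt2, the cardiac troponin T gene, was at 12.3, 14.4, 14.3 and 13.4 FPKM. Des, the other expressed gene of 10 for muscle, was at 1.25, 1.34, 1.03 and 1.44 FPKM. The muscle genes Myod1, Myog and Myh7 were absent. S100a4, listed for fibroblasts, was at 13.7 ± 1.02 FPKM, with Lum and Fap listed at 0. Scarb1 and Star were the 2 expressed genes of 10 for the adrenal cortex, and its defining factor Nr5a1 and the steroid enzymes Cyp11a1 and Cyp17a1 were absent.

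The most abundant transcripts were those of protein synthesis. Eef1a1, the elongation factor, was at 5442 FPKM (SD 26.9), Ppia, cyclophilin A, at 4347 FPKM and the ribosomal protein gene Rpl41 at 3944 FPKM. The 20 most abundant genes held 10.6% of the summed FPKM and the 79 cytosolic ribosomal protein genes 20.2% ± 0.176 (SD, n = 4), all 79 of them expressed. Ribosomal protein genes share reads with processed pseudogenes, so single values are uncertain.

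Most genes differed little between the 4 libraries. Pairs of libraries correlated across genes with r of 0.995 to 0.997 on log2(FPKM + 1) values, where genes are not independent replicates. The coefficient of variation (SD as a percent of the mean) had a median of 4.19% over the expressed genes and was 11.3% at the 90th percentile. For genes of 10 FPKM or more its median was 3.28%, and for those of 0.5 to 2 FPKM it was 17.1%. The 10 most variable genes of at least 5 FPKM were led by the pseudogenes Pisd-ps1 and Rps19-ps3, by Eif3j2 and by the SCAN domain gene Scand1. Eif3j2 was at 32.4, 60.2, 55.4 and 15.2 FPKM, and with its near-identical copy Eif3j1 added the pair was at 61.2, 60.2, 55.5 and 56.3 FPKM. The sum of the pair thus varied less than Eif3j2 alone. Akr1b3, aldose reductase, was at 40.9, 28.4, 34.7 and 17.9 FPKM, Tdg, a DNA glycosylase, at 23.8, 19.2, 14.1 and 10.5 FPKM, and Lars2, a mitochondrial tRNA synthetase, at 63.4, 63.3, 49.4 and 94.9 FPKM. Rab26os, Apoo-ps and Zfp771 made up the rest of the 10. Vehicle 4 was the lowest library for 8 of the 10 genes, all but Rps19-ps3 and Lars2, and the highest for Lars2. Over all expressed genes it was the lowest library for 27.0%. When the 10 were chosen again without Vehicle 4, 4 of them were still in the list, against 7 to 9 without any 1 of the others, a repeat added after seeing the data.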

How the data were processed

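PolyA-selected RNA of 4 Vehicle libraries of N2a cells was analysed. The authors deposited FPKM per gene, and per the submitters' processing notes TopHat2 and Cuffdiff were used with mm9, a mouse build. No source used here gives tool versions, annotation, filters or whether counting used the strand, which leaves overlapping genes and near-identical copies uncertain. Positions and row status come from the authors' deposited comparison table, with positions as that table gives them. The 8 columns of per-sample values from other groups were not used.

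FPKM values were read as deposited with pandas 2.3.3 in Python 3.11.15. No test was run, because no groups were compared. Levels are means with SD over 4 libraries. Library totals are not part of the tables read here. Depth was estimated from values of at most 0.03 FPKM, read as 1 fragment, in genes of 2000 to 8000 bases with 1 transcript in a newer mouse annotation, so it is approximate. The estimator was tested on simulated data. Of 24318 rows, 100 held several names and 92 lay on unplaced contigs, of which 85 were listed at 0. Rows on unplaced contigs counted as unmeasured in the gene lists, while rows with several names were kept as measured.

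The 62 gene lists (1394 symbols, of which 1392 were measured, 3 under another name, and 2, Asmt and Hmgcs1, were not) were written from textbook knowledge, and members and lists were chosen with earlier results of these data known. Any list gene could be named, plus the 20 genes with the highest mean and the 10 with the largest coefficient of variation among those of at least 5 FPKM, without rows of several names, predicted loci and short RNA genes. The alternatives were the other deposited table with the same libraries, FPKM rescaled to 1 common sum per library (the TPM scale), each library left out, thresholds of 0.5 or 5 FPKM in place of 1 and of 0.05 or 0.3 FPKM in place of 0.1, means in place of every library, rows of several names left out, libraries scaled to their median ratio and, added after seeing the data, rows on unplaced contigs left out. Promoter sequences are RefSeq's, from GRCm38.p6. Figures were drawn with matplotlib 3.10.9. Some genes of the lists were counted but are not reported here by name.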

Additional observations from a re-analysis of the deposited data

Results flagged for a closer look

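A check of spread covered 238 of the named genes that were not absent, and 19 had 1 library set apart from the other 3. For these the gap to the nearest library was over Dixon's 95% critical share of the whole range for 4 values. Chance alone flags about 1 in 20 such groups. The library set apart was Vehicle 1 for 8 genes, Vehicle 2 for 3, Vehicle 3 for 4 and Vehicle 4 for 4, and it was the lowest for 8 genes and the highest for 11.

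In Vehicle 1 the lineage genes Hand2 (144.8 FPKM, against 161.0 to 164.0 in the others) and Dbh (3.87, against 4.67 to 4.77), the nicotinic subunit Chrnb2 (9.51, against 10.9 to 11.1), the convertase Furin (39.4) and the ribosomal Rpl41 (3759) were lowest. The creatine gene Gamt (14.6 FPKM), the calcium channel Cacna1c (6.42) and the collagen Col1a1 (0.773, against 0.441 to 0.497) were highest there.

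In Vehicle 2 Trp53 (88.8 FPKM, against 82.0 to 82.8), the glucocorticoid receptor Nr3c1 (13.8) and the metallothionein Mt1 (1.06, against 0.415 to 0.437) were highest. In Vehicle 3 Alk (6.12 FPKM), Mycl (0.594) and Fev (1.12) were highest and Lmo1 (67.0) was lowest.

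In Vehicle 4 Hoxc10 (31.6 FPKM, against 26.7 to 27.0) and the complexin Cplx1 (91.6) were highest, and the sodium channel Scn8a (6.01) was lowest. The pseudogene Pisd-ps1 was at 0.0260 FPKM there, against 7.77 to 8.42 in the other libraries. Without Vehicle 4 the 3 values of Pisd-ps1 thus lay close together.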

How the results depend on the processing

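No paired analysis was possible because 1 group is described and no test was run. The count of expressed genes was 11073 in both deposited tables, 11096 to 11117 with 1 library left out and 11616 on the TPM scale, which multiplies FPKM by 1.82 to 1.85. It was 11687 at a threshold of 0.5 FPKM and 8859 at 5 FPKM. The count of absent genes ranged from 10071 (below 0.05 FPKM) to 11798 (below 0.3 FPKM). The 6 lineage marks were expressed under each setting except 5 FPKM, where 5 were. Expressed members moved by more than 1.5 times in 6 of 62 lists, to the same number on the TPM scale and at 0.5 FPKM: to 5 for nicotinic, ionotropic glutamate and endothelial genes, 10 for peptide receptors and for neurotrophic factors, and 1 for epithelium. On the TPM scale 361 of the named genes were checked, and the mean of 257 moved by more than 1 SD, as that factor sets. The other table holds the same libraries, and leaving out 1 of 4 values cannot move a mean by 1 SD, so neither bears on the named genes' means. Depth limits the absent class: short transcripts need higher levels to be seen.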

Other observations

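Of 26 imprinted genes, which can be read from 1 parental copy, 11 (42.3%) were expressed, near the 45.5% of all gene rows. A further 12 were low and 3 absent, and which copy was read was not measured here. Gnas, the stimulatory G protein, was at 936 ± 8.22 FPKM (SD, n = 4), Mest at 442 ± 12.2 and Peg3 at 60.9 FPKM. Igf2, a fetal growth factor, was low at 0.107 FPKM and its neighbour H19 at 0.483 FPKM. Dlk1, a surface protein of chromaffin cells, was at 6.84, 7.42, 7.58 and 7.12 FPKM, while Meg3 from the same region was low at 0.900 FPKM. Of 12 pluripotency genes 1 was expressed, Klf4 at 8.02 FPKM, and Pou5f1 and Sall4 were listed at 0.

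Xist, the RNA that coats an inactive X chromosome, was at 53.5, 51.0, 45.7 and 46.3 FPKM (49.1 ± 3.76), and Ftx beside it was at 2.42 FPKM. Of the Y-linked genes Eif2s3y, Uty, Zfy1, Zfy2, Usp9y and Sry were listed at 0, Ddx3y had a mean of 0.00933 FPKM and Kdm5d one of 0.00265 FPKM. The labels give no sex for the line.

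Of 44 nuclear receptors 25 (56.8%) were expressed, against 45.5% of all gene rows, and 17 were absent. The thyroid hormone receptor Thra was at 37.7 FPKM while Thrb was absent. Among retinoic acid receptors Rarg was at 21.2 FPKM and Rara at 14.8, and Rarb was absent. The glucocorticoid receptor Nr3c1 was at 13 FPKM, while the progesterone receptor Pgr was listed at 0. In the p53 and apoptosis list 23 of 33 genes were expressed, with the pore protein Bax at 113 FPKM and the survival protein Mcl1 at 52.8 FPKM. Bcl2 was at 3.08 FPKM, below Bcl2l1 (BCL-XL) at 18.8 FPKM, and the p53 target Pmaip1 was listed at 0.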
